A study of Homo sapiens with 11 samples.

Results

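The proteasome is the protein complex that degrades proteins tagged with ubiquitin, and its subunits are encoded by the PSM genes. The genes described here are all those whose symbol is PSMA, PSMB, PSMC, PSMD, PSME or PSMF followed by a number, which are 44 of the 23608 gene symbols measured. They comprise 8 genes of the alpha ring and 8 of the beta ring of the core particle, 3 immunoproteasome genes, 6 ATPases and 11 other subunits of the regulatory particle, 3 regulatory-particle assembly chaperones, 4 activators and 1 inhibitor. Of these, 42 passed the filter on low values (an FPKM of 1 or more in 2 or more libraries). PSMA8, a testis form of an alpha subunit, and PSMB11, a thymus form of a beta subunit, were listed at or near 0 in all libraries and were not tested.

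RNA was sequenced from A549, a long-established line of human lung adenocarcinoma cells, in 4 groups. Cells received the vehicle DMSO for 48 hours (2 libraries, numbered 2 and 3) or for 2 weeks (3 libraries), or cigarette smoke condensate (CSC, the tar-like particulate matter of smoke in solution) for 48 hours (3 libraries) or 2 weeks (3 libraries). The labels give the condensate dose as 20uM, a molar unit for a mixture, and it is quoted as written. All groups share the same line, which is known to carry a loss-of-function change in KEAP1, so that the oxidative stress factor NRF2 is already active in its vehicle controls. Nothing in the labels tells whether the replicates came from different cultures, so every p-value below reflects the spread between these libraries alone, and that spread may be technical.

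The core particle is a barrel of stacked rings: outer alpha rings gate the entrance and inner beta rings hold the protease sites. The regulatory particle caps the barrel, where its lid recognises and removes ubiquitin and its ring of ATPases unfolds the protein and threads it inside. Proteasome genes are transcribed together, mainly through the factor NRF1 (encoded by NFE2L1), with NRF2 adding to it under oxidative stress, and both bind antioxidant response elements as dimers with small MAF proteins. Interferon signalling induces the immunoproteasome subunits PSMB8, PSMB9 and PSMB10, which replace the catalytic subunits PSMB5, PSMB6 and PSMB7, together with the activators PSME1 and PSME2.

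The promoters of the genes were searched for letters of these elements because both inputs act there. RefSeq promoter windows on GRCh38.p14, from 250 bases before to 50 after each gene's start, were at hand for 39 of the 44 genes, and PSMA7, PSMB1, PSMB6, PSMB7 and PSMD4 are named only. The letters TGACNNNGC of the antioxidant response element, on either strand, were in the windows of 13 of the 39 genes (33.3%). The share was 16.1% of all 27305 genes with a window and 19.5% of the 9057 of them that passed the filter. The 13 proteasome genes were PSMA4, PSMB3, PSMB9, PSMC4, PSMC5, PSMD1, PSMD3, PSMD5, PSMD9, PSMD12, PSME1, PSME2 and PSME4. With an A required after these letters, as in longer forms of the element, 9 of the 39 genes (23.1%) and 3.94% of all genes had a match, and PSMC4, PSMD5, PSME1 and PSME2 no longer did. One window each from the alpha ring, the beta ring, the immunoproteasome and the lid of the regulatory particle and 2 from the ATPases are shown, with the matched letters in capitals. PSMC4 is among them as the one gene of the family that passed the test in any comparison. Each is written along the strand of its gene, where a match on the other strand reads GCNNNGTCA.
PSMA4, chr15:78540650-78540678, plus strand: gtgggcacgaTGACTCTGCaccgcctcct
PSMB3, chr17:38752627-38752655, plus strand: gcctccgtttTGACTTTGCaaccaaacta
PSMB9, chr6:32854034-32854062, plus strand: gggcggggctGCCTCGTCActtgtctcgg
PSMC4, chr19:39971182-39971210, plus strand: acagaggccgGCTTGGTCActatggagga
PSMC5, chr17:63827654-63827682, plus strand: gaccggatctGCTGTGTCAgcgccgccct
PSMD12, chr17:67366724-67366752, minus strand: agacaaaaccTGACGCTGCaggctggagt

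The match of PSMC4 lies 28 to 36 bases after its start, and the others shown lie before the start of their gene. A match is a description of these letters and not a measured binding site. Among the genes with a match, the log2 change of CSC against DMSO at 2 weeks ran from -0.06 (PSME4) to 0.50 (PSMB3). A relation between match and change was not tested.

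The letters GAAANNGAA of the interferon-stimulated response element, on either strand, were in the windows of 7 of the 39 genes (17.9%). The share was 9.86% of all genes with a window and 8.57% of those that passed the filter. The 7 were PSMA4, PSMB4, PSMB8, PSMB10, PSMC2, PSME1 and PSME2, so the list holds 2 of the 3 immunoproteasome genes and both interferon-induced activators. With an A required after these letters, 6 of the 39 genes (15.4%) and 4.38% of all genes had a match, and PSMC2 no longer did. The windows of 4 genes are shown because they encode the subunits that interferon is known to induce. A match on the other strand reads TTCNNTTTC.
PSMB8, chr6:32844032-32844060, minus strand: atctgtggctTTCGCTTTCacttcctcct
PSMB10, chr16:67936853-67936881, minus strand: gggtaaaggcGAAAGCGAAagcaggaagt
PSME1, chr14:24136190-24136218, plus strand: ccctaccgctTTCGCTTTCccttcgcggt
PSME2, chr14:24146620-24146648, minus strand: cctggggagtGAAAGCGAAagcccgggcg

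Levels are FPKM (fragments per length of transcript, scaled to the mapped fragments of the library). The annotation behind the lengths is not given, so levels of different genes can be set side by side only roughly. The summed FPKM of a library lay between 338507 and 484053, and the proteasome genes made up 0.489% to 0.617% of it. RMRP and RPPH1 together made up 19.2% to 24.4% of that sum. Without them the share of the proteasome genes was 0.648% to 0.773%. The number of reads is unknown, and the width of the deposited bounds put the depth of CSC 2 weeks replicate 2 at 2.66 times that of the shallowest library and the others at up to 1.36 times. Of the list of lung epithelial genes, the keratins KRT8 and KRT18 and the enzymes ALDH1A1 and AKR1B10 were each at 573.5 FPKM or more in every library. The others on that list were lower, with KRT19 between 24.4 and 49.3, CDH1 between 2.51 and 11.06 and EPCAM between 2.59 and 8.15. PTPRC and CD3E of leukocytes, DCN of fibroblasts and PECAM1, CDH5 and VWF of endothelium were at 0 in most libraries. Other markers on those lists were not: the fibroblast collagen COL1A1 lay between 3.73 and 11.49 FPKM, CD68 between 3.81 and 7.24 and CD14 between 0.676 and 3.76. The summed fibroblast list, mostly COL1A1, was 3.87 to 6.68 at 48 hours, 10.87 to 11.88 in DMSO and 7.24 to 9.55 in CSC at 2 weeks, and its part in the results was not tested. Of the 44 genes, 16 have annotated pseudogenes (42 in all, none with a row of its own in the files), and reads shared with those copies cannot be told apart. In bulk RNA, fewer cells of a kind and less RNA per cell cannot be told apart.

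Constitutive subunits were abundant and immunoproteasome subunits scarce. The highest mean over the 11 libraries was that of the alpha subunit PSMA7 (148 FPKM, from 109 to 221), followed by PSMA4 (124 FPKM, from 89.5 to 167) and the beta subunit PSMB3 (112 FPKM, from 88.2 to 184). Most subunits of the regulatory particle lay lower, from PSMD8 at 71.5 FPKM to PSMC2 at 22.2 FPKM. Neighbours in this order overlapped widely over the libraries. The 2 lowest constitutive core subunits were PSMB2 (14.6 FPKM) and PSMA5 (11.8 FPKM), which in the assembled particle are present in the same number as every other subunit. The 3 immunoproteasome genes closed the order of the genes tested, with PSMB10 at 6.09 FPKM, PSMB8 at 5.70 FPKM and PSMB9 at 3.55 FPKM, and their ranges over the libraries lay below those of all other genes tested, except that the highest PSMB8 value of 9.99 FPKM passed the lowest values of PSMA5 and PSMD9.

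**Figure D1:**
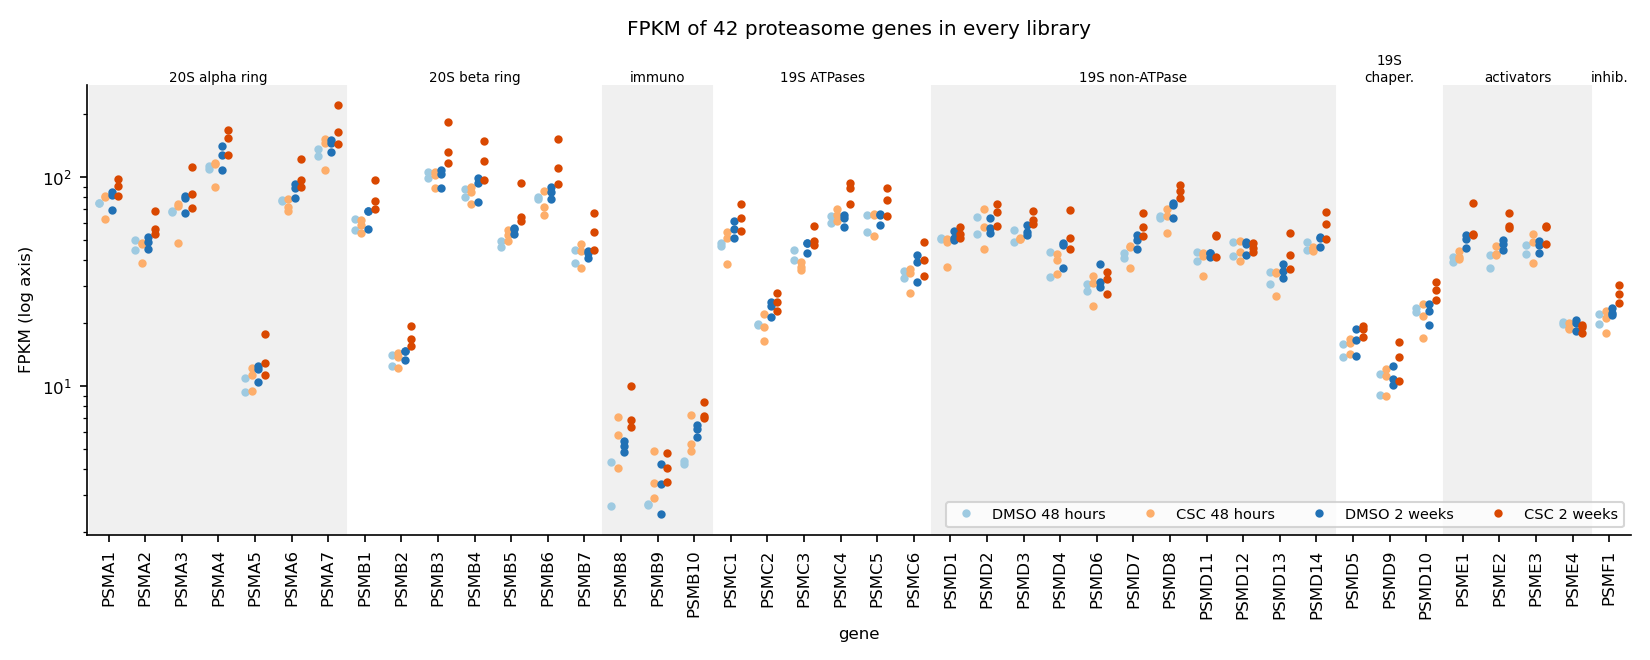
FPKM (log axis) of each of the 42 proteasome genes tested, grouped by role, with 1 point for each of the 11 libraries coloured by group. The 3 immunoproteasome genes lie lowest, and in most of the other genes the highest point is a CSC library at 2 weeks.

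After 2 weeks of condensate, proteasome genes lay mostly above the vehicle, but 1 gene of the 42, the ATPase PSMC4, passed the test. The test was limma on log2(FPKM + 0.5) with Benjamini-Hochberg adjustment over all 12506 genes tested, of which 3.01% were called higher and 2.4% lower in this comparison. The log2 change was positive in 39 of the 42, beside 8137 of all 12506 genes, and negative in PSMD6, PSMD12 and PSME4. The median was 0.26 against 0.09 over all genes tested. At an unadjusted p under 0.05, 14 of the 42 were higher and 0 lower, beside 17.2% and 7.37% of all genes. In 15 of the 42 every CSC library lay above every DMSO library and in 0 below, beside 20.3% and 9.84% of all genes. Scaling every library to the same summed FPKM moved the median of all genes from 0.09 to -0.04 and that of the proteasome genes to 0.12 and removed the 1 call. Relative to the median of all genes the proteasome median lay 0.16 higher as deposited and 0.15 higher with that scaling.

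**Figure D2:**
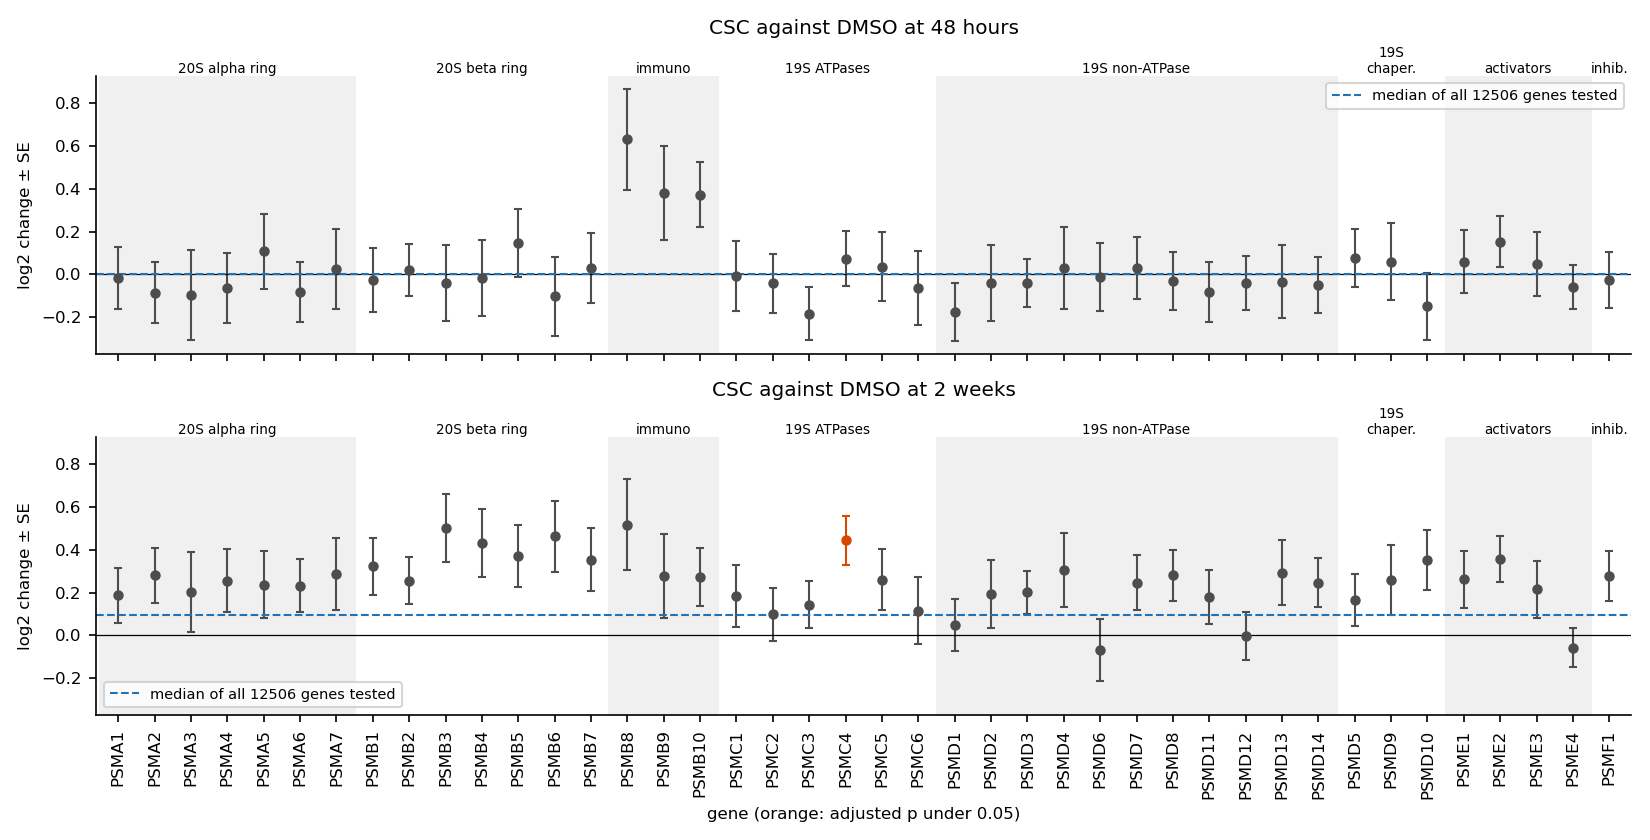
Log2 change of CSC against DMSO with its standard error for the 42 proteasome genes at 48 hours (upper panel) and 2 weeks (lower panel), on the log2(FPKM + 0.5) scale. The dashed line is the median of all genes tested. At 2 weeks 39 of the 42 points lie above 0 and PSMC4 (orange) is the one that passed the test, and at 48 hours PSMB8, PSMB9 and PSMB10 stand highest.

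PSMC4 (hg19 chr19:40476912-40487671) encodes one of the ATPases of the ring that unfolds substrates. Its FPKM at 2 weeks was 63.8, 65.9 and 57.7 in DMSO replicates 1 to 3 and 93.6, 74.3 and 88.3 in the CSC replicates. The groups did not overlap, and replicate 2 was the lowest of the CSC libraries. The log2 change was 0.44 ± 0.11 (SE), a 1.36-fold higher level with an adjusted p of 0.0426 in limma. At 48 hours its values were 60.3 and 65.0 in DMSO and 70.1, 66.1 and 61.8 in CSC, which overlapped. The call was narrow: it was kept in 2 of the 11 fits that left out 1 library, where the adjusted p ranged from 0.0105 to 0.168 and the log2 change from 0.37 to 0.54.

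None of the other 5 ATPases passed the test, and their difference from PSMC4 was not tested. PSMC5 was at 66.9, 66.1 and 59.0 FPKM in DMSO and 89.1, 64.8 and 77.8 in CSC at 2 weeks, a log2 change of 0.26 (adjusted p 0.280). PSMC3 was at 48.5, 48.3 and 43.1 in DMSO and 58.5, 47.1 and 49.5 in CSC, a log2 change of 0.14 (adjusted p 0.442). In both genes CSC replicate 2 lay within or below the DMSO libraries. All 6 ATPases had positive log2 changes at 2 weeks, with a median of 0.16.

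The beta ring, with the protease sites, had a median log2 change of 0.37 at 2 weeks. Without CSC 2 weeks replicate 1 it was 0.21, beside 0.20 for both the immunoproteasome genes and PSMF1, so no order of the roles is given. All 7 of its tested genes had positive values with an unadjusted p under 0.05, beside 17.2% of all genes. In 6 every CSC library lay above every DMSO library, beside 20.3% of all genes. The adjusted p in limma lay between 0.0814 and 0.178. PSMB3 (hg19 chr17:36909002-36920478), a structural subunit, was at 108, 103 and 88.2 FPKM in DMSO and 184, 116 and 131 in CSC at 2 weeks. All CSC libraries lay above the DMSO libraries and replicate 1 stood far above the other two. The log2 change was 0.50 ± 0.16 (SE), with an adjusted p of 0.0814.

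The catalytic subunit PSMB6, with caspase-like activity, showed the same order of libraries. It was at 89.6, 84.998 and 78.4 FPKM in DMSO and 153, 92.6 and 111 in CSC at 2 weeks, a log2 change of 0.46 (adjusted p 0.114). PSMB5, which carries the chymotrypsin-like site and is the main target of clinical proteasome inhibitors, was at 57.3, 56.2 and 53.5 in DMSO and 94.1, 61.6 and 64.6 in CSC, a log2 change of 0.37 (adjusted p 0.140). For PSMB5, CSC replicates 2 and 3 stood only slightly above the vehicle and replicate 1 far above it. PSMB4, a structural beta subunit, was at 98.7, 93.5 and 75.9 in DMSO and 150, 97.2 and 119 in CSC, a log2 change of 0.43 (adjusted p 0.122), and its groups overlapped.

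The alpha ring, which gates the barrel, had a median log2 change of 0.24 at 2 weeks with all 7 tested genes positive. Of these 0 were called, beside 3.01% of all genes called higher and 2.4% lower. PSMA2 was at 49.2, 51.8 and 45.1 FPKM in DMSO and 68.9, 53.5 and 56.3 in CSC, a log2 change of 0.28 (adjusted p 0.196). It was the only alpha gene whose groups did not overlap, beside 20.3% of all genes with CSC above. PSMA6 was at 88.6, 92.3 and 79.5 in DMSO and 122, 90.03 and 96.3 in CSC, a log2 change of 0.23 (adjusted p 0.269). PSMA4 was at 127, 140 and 108 in DMSO and 167, 127 and 154 in CSC, a log2 change of 0.26 (adjusted p 0.301).

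Among the 11 non-ATPase subunits of the regulatory particle, 9 had positive log2 changes at 2 weeks and the median was 0.20. PSMD8, a lid subunit, was at 73.5, 74.9 and 63.5 FPKM in DMSO and 91.4, 79.5 and 86.3 in CSC, a log2 change of 0.28 (adjusted p 0.178) with groups that did not overlap. PSMD14, the deubiquitinase of the lid, was at 51.0, 51.5 and 46.1 in DMSO and 67.7, 50.4 and 59.4 in CSC, a log2 change of 0.25 (adjusted p 0.212). PSMD3, another lid subunit, was at 58.8, 54.5 and 52.9 in DMSO and 69.2, 59.8 and 62.5 in CSC, a log2 change of 0.20 (adjusted p 0.236). PSMD6 and PSMD12, which also belong to the lid, were the 2 with negative values, -0.07 (adjusted p 0.803) and -0.0034 (adjusted p 0.988), both smaller than their standard errors of 0.14 and 0.11.

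The 3 chaperones that build the ATPase ring were positive at 2 weeks. PSMD10, known as gankyrin, was at 24.8, 22.7 and 19.7 FPKM in DMSO and 31.5, 25.7 and 28.9 in CSC, a log2 change of 0.35 (adjusted p 0.152), without overlap. PSMD9 was at 12.4, 10.8 and 10.1 in DMSO and 16.3, 10.5 and 13.8 in CSC, a log2 change of 0.26 (adjusted p 0.340). PSMD5 was at 18.7, 16.7 and 13.9 in DMSO and 18.7, 17.1 and 19.3 in CSC, a log2 change of 0.17 (adjusted p 0.415). The last 2 overlapped between groups.

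The activators open the core particle without ATP. PSME2, a subunit of the interferon-induced activator ring, was at 47.7, 49.7 and 44.995 FPKM in DMSO and 67.6, 57.3 and 58.3 in CSC at 2 weeks, without overlap, a log2 change of 0.36 (adjusted p 0.0714). Its partner PSME1 was at 53.1, 50.3 and 46.0 in DMSO and 74.8, 53.7 and 53.0 in CSC, a log2 change of 0.26 (adjusted p 0.239), and overlapped at its lowest CSC library. PSME3, the nuclear activator, was at 49.6, 47.2 and 43.3 in DMSO and 58.1, 47.7 and 57.6 in CSC, a log2 change of 0.22 (adjusted p 0.334). PSME4, the activator linked to histone breakdown, was flat by comparison, between 17.9 and 20.7 FPKM over all 11 libraries. The inhibitor PSMF1 was at 23.7, 22.4 and 21.9 in DMSO and 30.6, 24.9 and 27.5 in CSC, a log2 change of 0.28 (adjusted p 0.164), so it lay on the same side as the subunits it is known to bind.

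By median deviation from the 11-library mean, CSC 2 weeks replicate 1 stood highest in every role. CSC 48 hours replicate 3, which is not in the comparison at 2 weeks, stood lowest in every role but the immunoproteasome. There DMSO 48 hours replicate 2 stood lowest (-0.41, against -0.16 in CSC 48 hours replicate 3). CSC 2 weeks replicate 1 was the highest of the 11 libraries in 37 of the 42 proteasome genes, beside 36.4% of all genes tested. CSC 48 hours replicate 3 was the lowest in 29 of the 42, beside 20.3% of all genes tested. The median deviation of the proteasome genes from their 11-library mean was 0.44 in the first of these and -0.32 in the second, against 0.18 and -0.06 over all genes. The other CSC libraries at 2 weeks deviated by 0.06 (replicate 2) and 0.23 (replicate 3), and the DMSO libraries at 2 weeks by 0.05, 0.03 and -0.14. Without CSC 2 weeks replicate 1, 37 of the 42 changes were still positive, with a median of 0.15 against 0.06 over all genes. In that fit 0 of the 42 were called, beside 0.754% of all genes called higher and 1.44% lower. Without the deeper CSC 2 weeks replicate 2, 41 were positive and 8 were called higher, beside 10.5% of all genes in that fit: PSMB3, PSMB4, PSMB5, PSMB6, PSMB7, PSMC4, PSMD14 and PSME2.

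**Figure D3:**
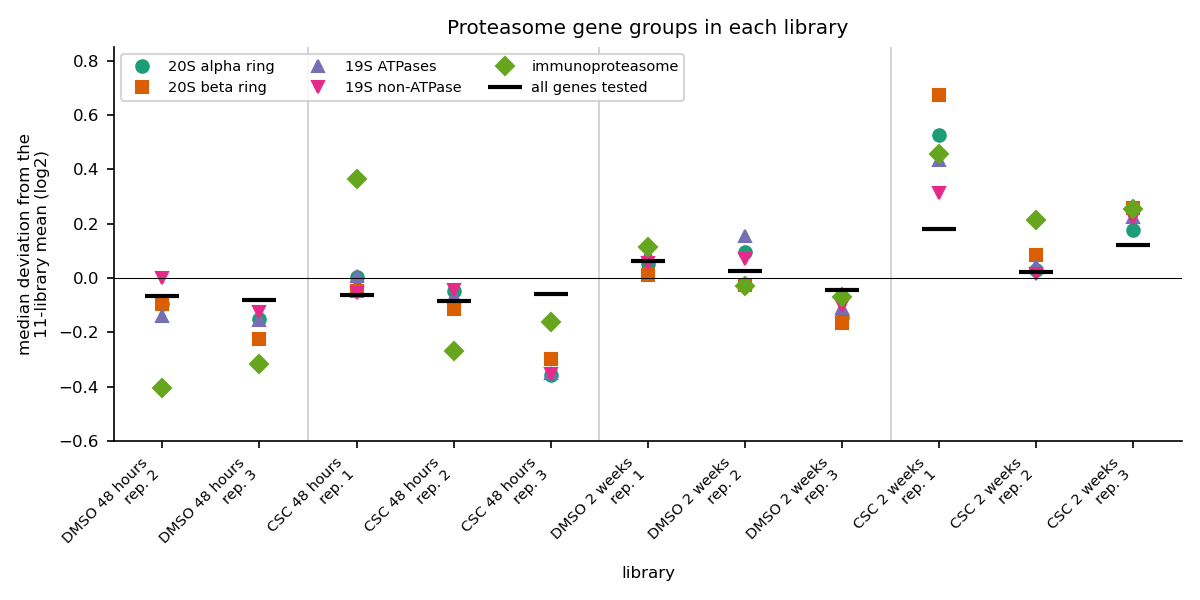
Median deviation from the 11-library mean (log2) of 5 groups of proteasome genes in each library, with that of all genes tested as a black bar. All 5 groups lie above the bar in CSC 2 weeks replicate 1 and below it in CSC 48 hours replicate 3. At 48 hours the immunoproteasome group lies above the other groups in CSC replicates 1 and 3. It lies below them in CSC replicate 2 and in the DMSO libraries.

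Transcript length moved with the change at 2 weeks, in all genes and in the proteasome genes. Grouped by the length of the canonical transcript, genes of all kinds had a median log2 change of 0.30 under 1000 bases, 0.22 from 1000 to under 1500, 0.14 from 1500 to under 2500, 0.08 from 2500 to under 4000 and 0.04 at 4000 and over. The proteasome genes in those classes (10, 10, 8, 8 and 6) had medians of 0.34, 0.28, 0.25, 0.19 and 0.22, each above that of all genes in its class. Over the 42 genes Spearman's rho between length and change was -0.60 and between length and the deviation in CSC 2 weeks replicate 1 it was -0.65, as a description over genes that share these libraries. The beta ring genes are mostly short, and PSMB2, the long exception at 4426 bases, had the lowest value among them. With the trend on length taken out of every library, the median of the proteasome genes at 2 weeks was 0.09 against 0.01 over all genes, 32 of 42 were positive, the medians of the beta ring and of the chaperones were both 0.16 and PSMF1 was at 0.26. In that fit 2.88% of all genes were called higher, and PSMC4 was still called (log2 change 0.29, adjusted p 0.0460). What part length or fragment size has in these values was not tested.

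**Figure D4:**
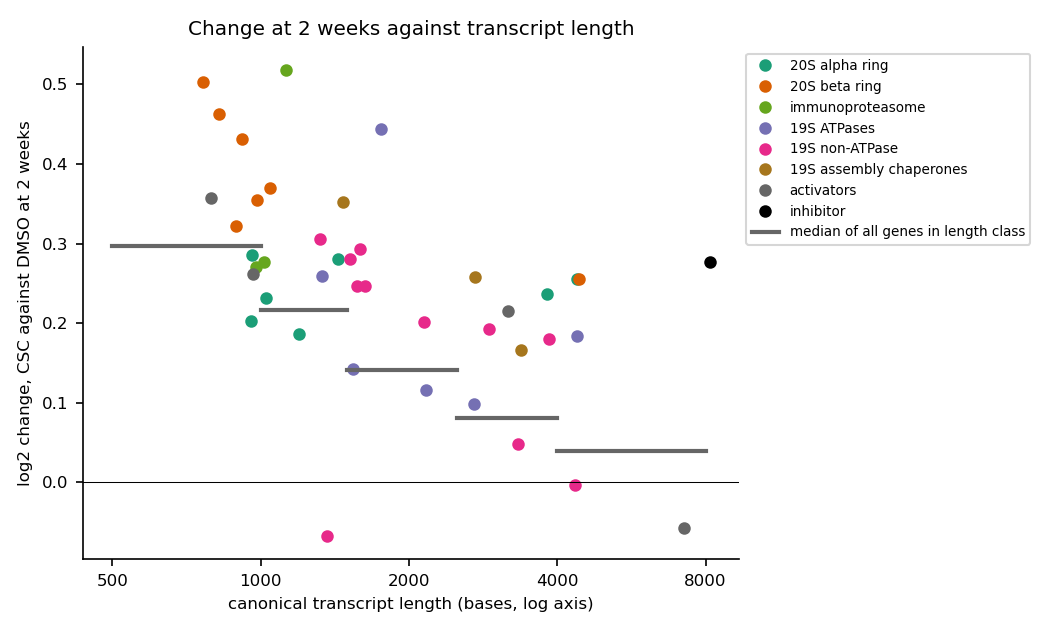
Log2 change of CSC against DMSO at 2 weeks against the length of the canonical transcript (bases, log axis) for the 42 proteasome genes, coloured by role. Horizontal bars are the medians of all genes tested in 5 length classes and fall from 0.30 to 0.04, and most proteasome genes lie near or above the bar of their class.

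At 48 hours no proteasome gene passed the test. Of the 42, 0 were called higher and 0 lower, beside 0.104% and 0.184% of all genes in limma. At an unadjusted p under 0.05, 2 were higher (PSMB8 and PSMB10) and 0 lower, beside 3.69% and 4.81% of all genes. The median log2 change was -0.02 against 0.00 over all genes, with 17 of 42 positive beside 6296 of all 12506 genes. The sign of the proteasome median turned with scaling to a common sum (0.02 against 0.04 over all genes, 30 positive). It also turned with quantile normalization (0.03 against 0.0035, 29 positive) and without CSC 48 hours replicate 3 (0.09 against -0.0012, 34 positive). No direction can therefore be given for the family at that time. All CSC libraries lay above the DMSO libraries in 3 genes (PSMB5, PSMB9 and PSMB10) and below in 2 (PSMC3 and PSMD1), beside 11% and 11.8% of all genes.

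The immunoproteasome genes had the highest values at 48 hours, where the 3 log2 changes were positive and the next highest was that of PSME2. PSMB8 (hg19 chr6:32808494-32812712) was at 2.66 and 4.31 FPKM in DMSO and 7.13, 4.06 and 5.83 in CSC, which overlapped. Its log2 change was 0.63 ± 0.24 (SE), with an adjusted p of 0.434 in limma. PSMB9 (hg19 chr6:32821938-32827628) was at 2.73 and 2.68 in DMSO and 4.90, 3.44 and 2.91 in CSC, a log2 change of 0.38 (adjusted p 0.718). PSMB10 (hg19 chr16:67968407-67970780) was at 4.38 and 4.23 in DMSO and 7.24, 4.86 and 5.28 in CSC, a log2 change of 0.37 (adjusted p 0.510). CSC replicate 1 was the highest library in all 3, and without it the log2 changes were 0.46, 0.19 and 0.21. PSMB8 and PSMB9 are also annotated on 7 alternative sequences of the same region, where both were listed at 0.

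At 2 weeks the median log2 change of the immunoproteasome genes was 0.28, beside 0.37 in the beta ring. PSMB8 was at 4.85, 5.47 and 5.16 FPKM in DMSO and 9.99, 6.37 and 6.85 in CSC, without overlap, a log2 change of 0.52 (adjusted p 0.159). PSMB9 was at 4.22, 3.39 and 2.43 in DMSO and 4.79, 4.05 and 3.48 in CSC, a log2 change of 0.28 (adjusted p 0.398). PSMB10 was at 6.499, 5.72 and 6.20 in DMSO and 8.38, 7.002 and 7.20 in CSC, without overlap, a log2 change of 0.27 (adjusted p 0.235). The summed FPKM of 5 leukocyte markers, nearly all of it CD68 and CD14, was 5.44 to 6.12 in the 48 hour libraries, 7.47 to 7.73 in DMSO and 8.06 to 11.04 in CSC at 2 weeks, while the leukocyte-defining PTPRC and CD3E were at or near 0. The part of these markers in the immunoproteasome values was not tested.

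Each immunoproteasome subunit was also set against the catalytic subunit it replaces, as a percent of that subunit's FPKM within the library. PSMB8 was at 5.42% and 9.36% of PSMB5 in DMSO at 48 hours and at 12.8%, 7.69% and 11.8% in CSC. At 2 weeks it was at 8.45%, 9.74% and 9.64% in DMSO and 10.6%, 10.3% and 10.6% in CSC, where the groups did not overlap but lay close together. PSMB9 was at 3.38% and 3.40% of PSMB6 in DMSO at 48 hours and 5.69%, 4.76% and 4.41% in CSC, and at 2 weeks the ranges overlapped. PSMB10 lay between 9.77% and 10.9% of PSMB7 in DMSO at 48 hours and between 10.96% and 15.6% in every other library. No test was made on these ratios, and in all 3 pairs the constitutive subunit was in large excess.

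**Figure D5:**
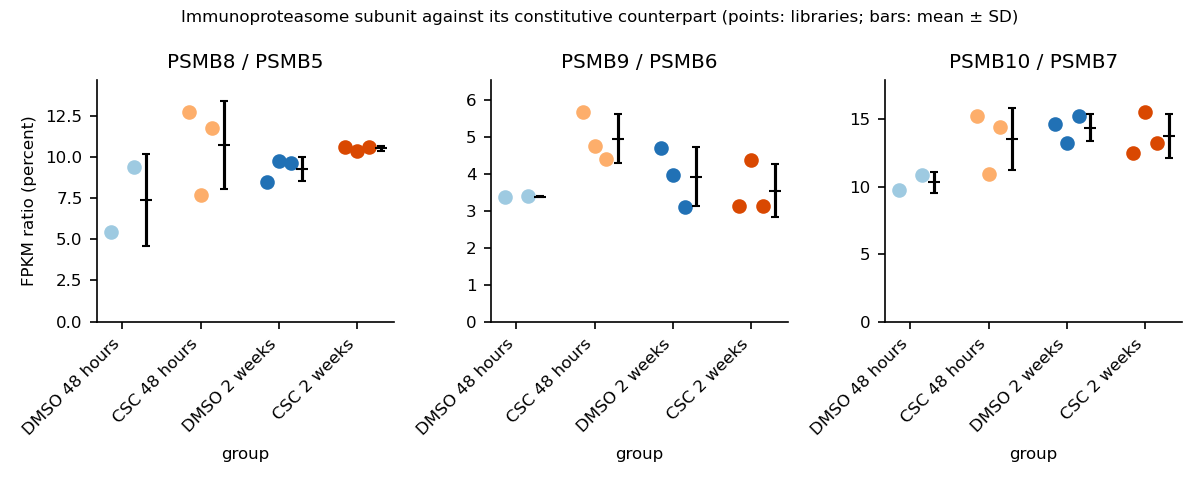
FPKM of PSMB8, PSMB9 and PSMB10 as a percent of the FPKM of PSMB5, PSMB6 and PSMB7 in each library, by group, with the mean and SD of the group beside the points (2 libraries in DMSO at 48 hours, 3 in the others). All ratios lie at or below 15.6%, and DMSO at 48 hours has the lowest mean in each panel.

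The effect of condensate was compared between the times in the same fit. For the difference of the effects (2 weeks minus 48 hours), 0 of the 42 were called higher and 0 lower, beside 0.008% and 0.032% of all genes. At an unadjusted p under 0.05, 3 were higher and 0 lower, beside 4.92% and 2.09%. Of the 42, 38 were positive, beside 8059 of all 12506 genes, and the median difference was 0.23 against 0.09 over all genes. With scaling to a common sum the median difference was 0.05 against -0.08 over all genes. The 4 negative ones were PSMB8 (-0.11), PSMB9 (-0.10), PSMB10 (-0.10) and PSMD6, with adjusted p of at least 0.917 for each, and the sign of the first 3 turned without CSC 48 hours replicate 1. The effects at the 2 times rest on different libraries.

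In the vehicle alone, DMSO at 2 weeks was set against DMSO at 48 hours. In limma 0 of the 42 were called in either direction, beside 0.656% of all genes called higher and 0.112% lower. The median was 0.12 against 0.09 over all genes, with 37 of 42 positive beside 8535 of all 12506 genes. The sign of the proteasome median turned with scaling to a common sum (-0.0013 against -0.02 over all genes). It also turned with quantile normalization (-0.04 against -0.01), so no direction is given for the family. In 9 of the 42 every DMSO library at 2 weeks lay above both at 48 hours and in 0 below, beside 28.8% and 7.88% of all genes. At an unadjusted p under 0.05, 3 were higher and 0 lower, beside 11% and 1.82%. The 2 largest values were those of PSMB8 (0.54, adjusted p 0.365) and PSMB10 (0.47, adjusted p 0.195), so the low vehicle values of these genes at 48 hours enter both their comparison with CSC and this one.

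Factors around the proteasome were followed in lists of genes outside the naming rule. Of the 6 assembly factors for the core and regulatory particles, 1 was called higher at 2 weeks and 0 lower, beside 3.01% and 2.4% of all genes. Their median log2 change was 0.19. PSMG4, a chaperone that helps the alpha ring to form, was at 4.63, 5.38 and 5.15 FPKM in DMSO and 10.2, 7.29 and 7.21 in CSC, a log2 change of 0.64 ± 0.13 (SE) with an adjusted p of 0.0151 in limma. With the length trend taken out it was 0.35 with an adjusted p of 0.0969, and it also missed the threshold without DMSO 2 weeks replicate 1 (0.0712) or replicate 3 (0.0591). PSMG2, another chaperone of this step, was at 17.5, 17.7 and 18.2 in DMSO and 26.6, 19.8 and 25.1 in CSC, a log2 change of 0.40 (adjusted p 0.0556). PSMG1, the partner of PSMG2, had a log2 change of 0.26 (adjusted p 0.361), POMP, which matures the core particle, 0.11 (0.707), and PAAF1, which binds the ATPases, 0.12 (0.692).

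Among 8 genes that govern proteasome transcription, 0 were called higher and 1 lower at 2 weeks, beside 3.01% and 2.4% of all genes. MAFK, a small MAF partner of NRF1 and NRF2, was at 22.2, 19.002 and 23.4 FPKM in DMSO and 11.9, 7.28 and 10.8 in CSC. The groups were well apart, and the log2 change was -1.09 ± 0.22 (SE), with an adjusted p of 0.0143. The call was lost without DMSO 2 weeks replicate 1 (0.0570) or replicate 3 (0.0679) and without the filter on low values (0.0547). At 48 hours MAFK was at 20.0 and 18.9 in DMSO and 9.58, 10.1 and 18.04 in CSC, so replicate 3 lay near the vehicle and replicates 1 and 2 well below it. MAFG and MAFF, the other small MAF genes, had log2 changes of 0.31 (adjusted p 0.178) and 0.28 (0.522) at 2 weeks. NFE2L1 itself was at 44.1, 48.9 and 42.4 in DMSO and 40.8, 51.9 and 39.6 in CSC (log2 change -0.04, adjusted p 0.898), and KEAP1 had a log2 change of 0.41 (adjusted p 0.0694).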

How the data were processed

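RNA was depleted of ribosomal RNA, sequenced on an Illumina HiSeq2000 and aligned to hg19 with TopHat2 version 2.0.9, per the labels' protocols, and CASAVA version 1.7.1a5 is named in the submitters' processing notes. The authors deposited FPKM values with bounds for each gene and locus, per the file headers. The sources used here do not give the quantifier, annotation, strand setting or total used for scaling. FPKM are not counts, so no count model was used.

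FPKM were summed over the loci of a symbol, 1 symbol with a failed estimate was left out, and log2(FPKM + 0.5) of the 12506 genes with an FPKM of 1 or more in 2 or more libraries entered limma version 3.58.1 in R version 4.3.3 (eBayes with trend). All 11 libraries shared 1 fit with 4 group means and no block for the replicate number. A gene was called where its p, adjusted by Benjamini-Hochberg over all genes tested, was under 0.05. Changes on this scale understate those of low genes. The script was tested on simulated data with independent noise in each gene. Shifts shared by many genes of a library were not simulated.

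The proteasome genes and the lists were chosen with earlier results of these data known. Values in every library are given for PSMB5, PSMB8, PSMB9 and PSMB10, for called genes, and for up to 3 genes of each role, taken in order of their smaller p over the CSC comparisons. From each further list the rule took up to 4 genes by the same order, besides NFE2L1, POMP and TAP1. Some genes of these lists are not reported here. Genes outside this rule are named where they lead the order of levels or make up a small count, and were chosen after their values were seen. The promoter letters were chosen after seeing the data. Transcript lengths are those of the Ensembl canonical transcript in GENCODE lifted to GRCh37, known for 89% of the genes tested. Settings tried were pseudocounts, filters, scalings, library weights, a replicate block and leaving out each library, and, chosen after seeing the data, removal of a length trend (lowess of the deviations over log length within each library) and a common sum without RMRP and RPPH1.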

Additional observations from a re-analysis of the deposited data

How the results depend on the processing

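The count of proteasome genes called higher by CSC at 2 weeks, 1 as reported, was 0 without the filter on low values (beside 0.948% of all genes called higher), 0 with scaling to a common sum (2.11%), 2 with quantile normalization (PSMB3 and PSMC4, 2.48%), 0 with only the libraries compared (4.66%) and 0 with a common sum without RMRP and RPPH1 (1.82%). It was 22 with library weights (30.2%), whose estimate stopped before it converged, so that count is given without weight. Leaving out 1 library gave 0 to 8, with 8 without CSC 2 weeks replicate 2 (10.5% of all genes) and 1 without CSC 48 hours replicate 3 (5.46%). It gave 0 without any of the other 9, where 0.585% to 3.09% of all genes were called higher. Proteasome genes called lower stayed at 0 in every setting run, beside 1.06% to 14.4% of all genes at 2 weeks. In DMSO, 2 weeks against 48 hours, 1 gene (PSMB10) was called higher with only the libraries compared (3.38%). The cause of these moves was not tested. Over all genes the 376 calls higher and 300 lower at 2 weeks became 288 and 459 with median-of-ratios scaling, 264 and 486 with a common sum and 310 and 433 with quantile normalization. The median log2 change of the proteasome genes was then 0.16, 0.12 and 0.17, against 0.01, -0.04 and 0.02 over all genes.

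With the replicate block 3 proteasome genes were called higher at 2 weeks (PSMB3, PSMB6 and PSMC4), beside 4.76% of all genes. Among the other named genes PSMG2 (adjusted p 0.0445) and KEAP1 (0.0347) were then called higher, and PSMB9 in the difference of the effects turned to 0.048. The numbers were not taken as pairs, because the labels do not say what libraries of the same number share. Correlations over genes between deviations ran from -0.20 to 0.31 for same-numbered libraries and from -0.22 to 0.28 for the others. Among the replicate 1 libraries they were 0.19, 0.31 and 0.22, and DMSO at 48 hours has no replicate 1. The deviations of the 2 DMSO libraries at 48 hours mirror each other by construction. These values therefore cannot decide whether equal numbers belong together.

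Among named genes the sign turned at 2 weeks in ERAP1 (-0.056 with median-of-ratios scaling, -0.099 with a common sum, -0.038 with quantile normalization, -0.060 with library weights, -0.13 with a common sum without RMRP and RPPH1, -0.012 with the length trend removed), PAAF1 (-0.016 with a common sum, -0.12 with library weights, -0.044 with a common sum without RMRP and RPPH1), POMP (-0.030 with a common sum, -0.060 without RMRP and RPPH1 in it, -0.096 with the length trend removed), IRF1 and TAPBP (-0.071 and -0.063 with library weights, -0.020 and -0.025 with a common sum without RMRP and RPPH1). With that last scaling PSMC3 was at -0.029 and PSMD5 at -0.0027, and with the length trend removed PSMA6 was at -0.021, PSMC3 at -0.039 and PSME1 at -0.00055. Leaving out 1 library gave -0.13 to 0.16 for ERAP1, -0.16 to 0.030 for NFE2L1 and -0.082 to 0.23 for PAAF1. For the difference of the effects it gave -0.41 to 0.19 for PSMB8, -0.28 to 0.084 for PSMB9 and -0.21 to 0.057 for PSMB10. Of 1410 values of named genes under other settings, 1308 kept their direction and side of the threshold. Many of these values could not change direction. Leaving out a library outside the comparison, or changing the filter or the eBayes options, leaves the log2 change of a gene as it was. The total also includes the fit with library weights, whose estimate stopped before it converged. The count is therefore no measure of stability. The number of reads behind each FPKM is unknown, which limits the low immunoproteasome genes most.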

Other observations

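Ubiquitin, which marks proteins for the proteasome, and the factors that load and ferry it were measured in 15 genes. At 2 weeks 0 of the 15 were called, beside 3.01% of all genes called higher and 2.4% lower. Of the 15, 13 were positive, beside 8137 of all 12506 genes, with a median log2 change of 0.07 against 0.09 over all genes tested. At 48 hours 0 were called, beside 0.104% of all genes called higher and 0.184% lower. RPS27A, a fusion of ubiquitin with a ribosomal protein, was at 473, 468 and 393 FPKM in DMSO and 901, 503 and 578 in CSC at 2 weeks (log2 change 0.53, adjusted p 0.118 in limma). The groups did not overlap and CSC replicate 1 was the highest, the library that also stood highest in most proteasome genes. The shuttle factor UBQLN4, which carries ubiquitinated proteins to the proteasome, had a log2 change of 0.30 (adjusted p 0.117).

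Of 8 proteins that sit on the proteasome without a PSMA to PSMF symbol, 0 were called in either CSC comparison. Of all genes, 3.01% were called higher and 2.4% lower at 2 weeks, and 0.104% and 0.184% at 48 hours. The median of the 8 at 2 weeks was 0.18. SHFM1, a small lid subunit, was at 85.3, 95.9 and 74.3 FPKM in DMSO and 133, 100 and 95.04 in CSC (log2 change 0.35, adjusted p 0.185 in limma). ADRM1, a ubiquitin receptor of the regulatory particle, had a log2 change of 0.21 (adjusted p 0.378), TXNL1, a thioredoxin-like protein bound to the lid, 0.23 (0.265) and ZFAND5, which stimulates the proteasome, 0.20 (0.329).

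Antigen presentation and interferon signalling, in which the immunoproteasome takes part, were followed in 9 genes. Of these, 7 were tested, as ERAP2 and NLRC5 did not pass the filter, and 0 were called in either CSC comparison. The shares of all genes called higher and lower were 3.01% and 2.4% at 2 weeks and 0.104% and 0.184% at 48 hours. The median of the 7 was 0.03 at 2 weeks and 0.05 at 48 hours. TAP1, which pumps peptides into the endoplasmic reticulum and lies beside PSMB9, was at 11.9 and 8.39 FPKM in DMSO and 9.79, 10.03 and 11.8 in CSC at 48 hours, and its log2 change at 2 weeks was -0.08 (adjusted p 0.748 in limma). TAPBP, ERAP1 and IRF1 had log2 changes of 0.15, 0.03 and 0.13 at 2 weeks, with adjusted p of 0.453, 0.906 and 0.633. At 48 hours IRF1, an interferon-induced factor, was at 2.53 and 2.95 in DMSO and 3.45, 2.94 and 4.48 in CSC, which overlapped, a log2 change of 0.33 (adjusted p 0.682) beside 0.38 in PSMB9 and 0.37 in PSMB10.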
